A study of Mus musculus with 6 samples.

Results

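The 10 genes described here encode dual-specificity phosphatases that remove phosphate from mitogen-activated protein (MAP) kinases: Dusp1, Dusp2, Dusp3, Dusp4, Dusp5, Dusp6, Dusp7, Dusp10, Dusp16 and Dusp22. They were chosen by gene name for this role and make up 10 of the 56092 gene symbols in the count table and 10 of the 13528 genes that passed the filter on low counts, so no member was lost to the filter. RNA was sequenced from 6 libraries of RAW264.7, a mouse macrophage line, in 2 groups of 3. The shTrem2 cells carried a lentiviral short hairpin RNA against Trem2, a lipid-sensing surface receptor of macrophages, and the shNC cells were the control, which the sample labels call an empty vector and the study's methods list as a control hairpin. Both groups were puromycin-selected stable lines with a GFP-carrying lentivirus, and both received 20 ng/mL IL-4 for 24 h and then a 24 h co-culture with debris of renal tubular cells, made by freezing and thawing the mouse line TCMK-1. Both groups share the RAW264.7 background and differ only in the hairpin, as far as the labels say. The study's methods list 2 hairpins against Trem2, and which of them the sequenced cells carried is not given in the sources used here. Each group may be 1 selected line, and nothing states that the 3 libraries of a group came from separate cultures. The p-values therefore measure the spread between these libraries, which may be technical.

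The 6 libraries held between 15876119 and 19655165 estimated counts assigned to gene symbols, with a common biological coefficient of variation of 0.0598. Trem2, the targeted gene, stood at 114, 122 and 144 CPM (counts scaled to library size, with TMM factors) in the shNC libraries and at 64.7, 63.2 and 80.2 in the shTrem2 libraries, a log2 fold change of -0.87 (adjusted p = 3.39e-06, edgeR's quasi-likelihood test). Every shTrem2 library lay below every shNC library. On the per-length scale Trem2 went from 178 ± 28.5 to 41.7 ± 4.14 FPKM (SD, n = 3 each), and its log2 fold change was -2.06 with limma on log2(FPKM + 1) (adjusted p = 4.31e-05) and -2.06 with effective length as an offset in edgeR (adjusted p = 1.68e-06), so the size of the knockdown depends on the scale. In bulk RNA, fewer cells with a transcript and less of it per cell cannot be told apart, here and for every gene below. Of 8 macrophage markers 7 were detected, with a summed level of 4970 to 5880 CPM in shNC and 9960 to 11100 CPM in shTrem2, and Mertk never exceeded 3 counts. Most of that sum was Lyz2 (2520 to 3200 CPM in shNC, 6830 to 7910 in shTrem2) and Csf1r (1000 to 1140, then 1750 to 1830), whereas Adgre1 (117 to 136, then 74.3 to 92.7) and Itgam (463 to 472, then 259 to 278) were lower in every shTrem2 library. Of 14 tubular epithelial markers 8 were at 0 in all 6 libraries and 3 passed 3 counts, with a summed level of 0.88 to 1.43 CPM in shNC and 2.22 to 2.82 CPM in shTrem2. Of 4 markers of the IL-4 response, Chil3 and Retnla were at 0 in every library, Arg1 had 1 to 3 counts, at or under the floor of 3 counts used here, and Mrc1 had 5 to 71 counts, so Arg1, Chil3 and Retnla, which IL-4 is known to induce in macrophages, were not detected above the floor in either group. Mrc1 stood at 0.311, 0.777 and 0.33 CPM in shNC and at 3.23, 3.71 and 2.88 CPM in shTrem2. The part these marker levels play in the values of the phosphatases was not tested.

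MAP kinases (ERK, JNK and p38) are switched on by phosphorylation of a threonine and a tyrosine, and dual-specificity phosphatases switch them off by removing both phosphates. Typical members pair a catalytic domain with an N-terminal domain that docks the kinase, and many are themselves transcribed in response to the kinases that they inactivate. In macrophages they are known for limiting the duration of inflammatory signaling, with Dusp1 the best known example. In the deposited annotation all 10 members carried the catalytic domain, and 8 of them also carried the Rhodanese-type domain of the kinase-binding part, which Dusp3 and Dusp22 lacked. The annotation placed 9 members in the MAPK signaling pathway, all except Dusp22, and 5 (Dusp2, Dusp4, Dusp5, Dusp7 and Dusp16) in the efferocytosis pathway, the clearance of dead cells.

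Of the 10 phosphatases, Dusp1 rose 4.66-fold in shTrem2 and Dusp16 fell 2.21-fold, and the other changes were smaller than 1.5-fold. At a false discovery rate (FDR) under 0.05, 3 members rose (Dusp1, Dusp6 and Dusp22), 5 fell (Dusp2, Dusp3, Dusp4, Dusp7 and Dusp16) and 2 did not pass (Dusp5 and Dusp10). This is 8 of 10 beside 57.4% of all tested genes, with 28.8% of all genes higher and 28.6% lower. Differentially expressed genes (DEGs), those with FDR under 0.05 and a fold change over 1.5, numbered 2 of 10, beside 21.8% of all genes. Of them 1 was higher, beside 9.46%, and 1 was lower, beside 12.4%. The 3 shTrem2 libraries lay entirely above or below the 3 shNC libraries for 8 members, beside 63.8% of all genes. The median log2 fold change of the members was -0.22 and that of all tested genes was 0.0. The number of DEGs among the members rose to 4 when counts were scaled by library size alone and to 4 or 5 when FPKM values were tested, through Dusp3, Dusp7 and Dusp22, whose fold changes as reported here were 1.47, 1.49 and 1.32.

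**Figure D1:**
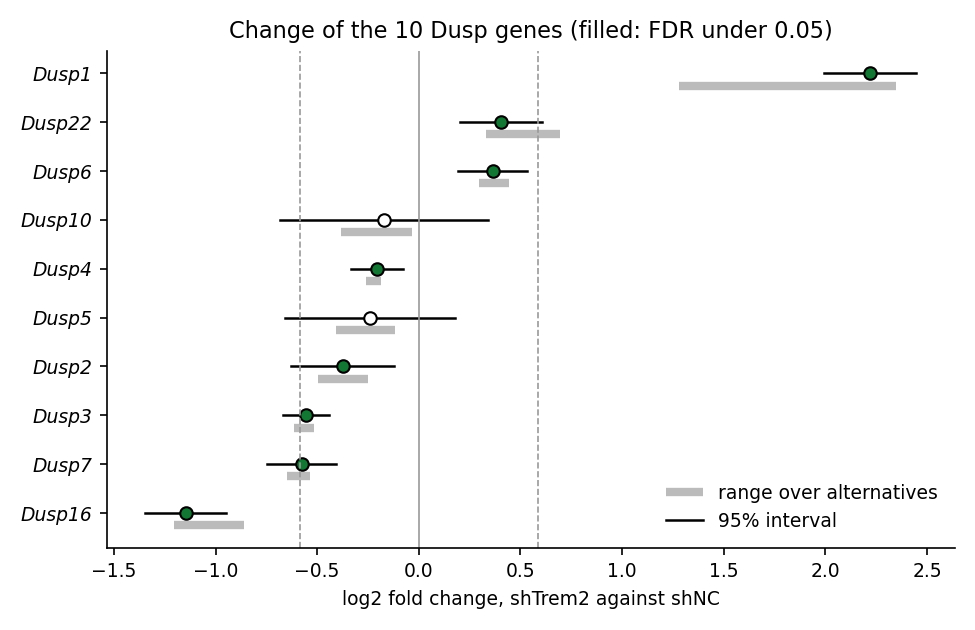
Log2 fold change (shTrem2 over shNC, x axis) of the 10 Dusp genes from edgeR's quasi-likelihood fit on 3 against 3 libraries, with black lines for 95% intervals, gray bars for the range over 18 alternative settings, filled points for FDR under 0.05 and dashed lines at a 1.5-fold change. Dusp1 lies at 2.22 on the right and Dusp16 at -1.15 on the left, while the intervals of Dusp5 and Dusp10 include 0.

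Dusp1 encodes a nuclear phosphatase of p38, JNK and ERK and is an immediate-early gene, transcribed within minutes of many stimuli. It is annotated on the minus strand of chr17:26505590-26562128 (GRCm38, GENCODE M21), where the main coding transcript, Dusp1-202, starts at 26508519 and a few rows without counts lie or reach farther upstream. Its promoter is shown because Dusp1 moved most of the members, and it is set beside the promoter of Dusp16, which moved most in the other direction, and that of Dusp5, which did not pass the test. All 3 are RefSeq sequences of GRCm38.p6, written 5′ to 3′ on the gene's own strand and without the bases that GENCODE annotates as exon: chr17:26508520-26508722 on the minus strand for Dusp1, chr6:134792629-134792878 on the minus strand for Dusp16 and chr19:53528895-53529108 on the plus strand for Dusp5. Capitals mark matches, on either strand, to the cAMP response element (CRE, spelled TGACGTCA). They also mark the core of this element, which is its first 5 letters, and the E-box, a site of bHLH factors spelled CACGTG. CArG boxes, TATA boxes and AP-1 sites were searched as well and would be in capitals too.
Dusp1: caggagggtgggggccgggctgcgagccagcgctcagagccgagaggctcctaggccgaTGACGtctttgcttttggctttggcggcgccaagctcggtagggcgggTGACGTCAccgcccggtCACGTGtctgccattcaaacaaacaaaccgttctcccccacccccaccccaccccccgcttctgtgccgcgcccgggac
Dusp16: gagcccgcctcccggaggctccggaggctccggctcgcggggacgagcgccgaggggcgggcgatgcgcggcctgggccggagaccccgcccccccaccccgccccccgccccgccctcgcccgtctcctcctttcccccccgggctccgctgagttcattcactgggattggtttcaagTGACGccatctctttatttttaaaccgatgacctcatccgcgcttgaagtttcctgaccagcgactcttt
Dusp5: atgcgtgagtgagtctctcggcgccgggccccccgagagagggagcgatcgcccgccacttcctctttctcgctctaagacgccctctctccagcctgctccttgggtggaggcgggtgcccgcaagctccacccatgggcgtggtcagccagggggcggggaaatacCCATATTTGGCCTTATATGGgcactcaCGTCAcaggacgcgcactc

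Motifs were looked for in the 250 bases before the RefSeq start, with positions counted back from that start, and promoters were found for 9 members. The Dusp1 promoter held the 1 full CRE of the 9, at -143, with its 2 overlapping core matches at -143 and -140, a further core at -191 and an E-box at -126. A full CRE was present in 1.546% of 32851 mouse promoters of this length, a core match in 17.765% and an E-box in 6.021%. The Dusp16 promoter held 1 CRE core at -70, 5 matches to the GC box (GGGCGG, in 32.742% of promoters) and 1 match to the EGR motif (GCGNGGGCG, in 4.697%) at -138, which overlaps a GC box. The Dusp5 promoter held a pair of abutting CArG boxes, the binding motif of serum response factor, at -82 and -72, and a CRE core at -55. At least 1 CArG box was present in 1.467% of promoters, and the share with a pair was not counted. The Dusp2 promoter held an E-box at -109 and an EGR match at -98, the Dusp22 promoter an EGR match at -111, and those of Dusp6 and Dusp7 held none of the 8 motifs searched. GC boxes were also present in the promoters of Dusp1, Dusp2 and Dusp3 (3 each), Dusp10 (2), and Dusp5 and Dusp22 (1 each). The AP-1 motif, spelled TGANTCA, occurs in 6.749% of promoters. The TATA motif, spelled TATAAA, occurs in 12.368%, and neither was in the 3 promoters printed. These matches describe letters in a window and say nothing of factor binding in these cells.

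Among the nuclear phosphatases, which are classically inducible, 1 rose, 2 fell and 1 did not pass the test. Dusp1 stood at 6.77, 9.71 and 8.19 CPM in the shNC libraries and at 37.1, 40.3 and 38.1 CPM in the shTrem2 libraries. Every shTrem2 library lay above every shNC library, with means of 8.22 ± 1.47 and 38.5 ± 1.63 CPM (SD, n = 3 each). The log2 fold change was 2.22 (SE 0.106, 95% interval 1.99 to 2.45, adjusted p = 1.66e-09). On the per-length scale the level went from 5.86 ± 1.15 to 29.0 ± 2.09 FPKM (fragments scaled to transcript length and to library size; SD, n = 3 each). Counting only the rows of its coding transcripts lowered the log2 fold change to 1.28 (adjusted p = 4.6e-05 by the same test).

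Dusp2 encodes a nuclear phosphatase found mainly in blood cells. It stood at 23.9, 20.0 and 16.7 CPM in shNC and at 15.4, 15.2 and 15.9 CPM in shTrem2. The groups did not overlap, and the shNC libraries were spread more widely than the shTrem2 libraries. The log2 fold change of Dusp2 was -0.38 (SE 0.117, adjusted p = 0.0141), and without shNC replicate 1 it was -0.25 (adjusted p = 0.0812). It also missed the threshold on the FPKM scale (adjusted p = 0.186 with a pseudocount of 1 and 0.182 with 0.1) and after correction for effective length (0.186).

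Dusp4, a nuclear phosphatase of ERK and JNK that is itself an ERK target, was among the most abundant members. Its level was 116, 116 and 103 CPM in shNC and 95.6, 102 and 92.9 CPM in shTrem2. The highest shTrem2 library lay just under the lowest shNC library, and Dusp4 fell by 0.21 on the log2 scale (SE 0.0594, adjusted p = 0.00871). Dusp5, a nuclear phosphatase selective for ERK, stood at 4.16, 5.66 and 5.11 CPM in shNC and at 3.50, 5.17 and 4.02 CPM in shTrem2. The groups overlapped, with a log2 fold change of -0.24 and a 95% interval of -0.66 to 0.18 (adjusted p = 0.312). An antisense gene, AC137853.2, overlaps the start of Dusp5 on the other strand; the kit marks strand, and whether the counting used it is not given in the sources used here.

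**Figure D2:**
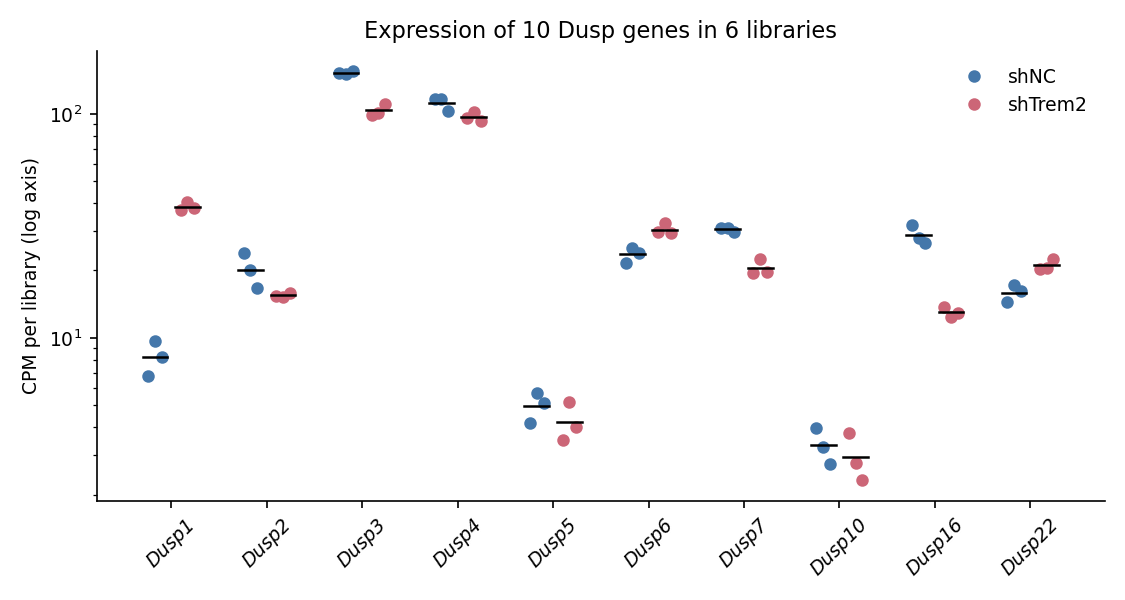
Level of the 10 Dusp genes in each library in CPM (counts scaled to library size, log axis), with shNC and shTrem2 libraries as points and the bars at the group means. The 3 shTrem2 points of Dusp1 lie between 37.1 and 40.3 CPM, above all shNC points, and those of Dusp16 between 12.4 and 13.7 CPM, below them.

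The cytoplasmic phosphatases of ERK, Dusp6 and Dusp7, moved in opposite directions. Dusp6 is a feedback inhibitor transcribed in response to ERK. It stood at 21.7, 25.2 and 24.0 CPM in shNC and at 29.6, 32.5 and 29.3 CPM in shTrem2. The groups did not overlap, and Dusp6 rose by 0.36 on the log2 scale (SE 0.0785, adjusted p = 0.00133). Dusp7, a close relative of Dusp6, stood at 31.1, 31.1 and 29.7 CPM in shNC and at 19.5, 22.6 and 19.6 CPM in shTrem2. The groups were well separated, and Dusp7 fell by 0.58 on the log2 scale (SE 0.0789, 95% interval -0.74 to -0.41, adjusted p = 3.05e-05), a 1.49-fold difference.

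Of the phosphatases directed at JNK and p38, Dusp16 fell and Dusp10 did not pass the test. Dusp16, which shuttles between nucleus and cytoplasm and acts mainly on JNK, stood at 31.9, 28.0 and 26.6 CPM in shNC and at 13.7, 12.4 and 12.9 CPM in shTrem2. The groups were far apart relative to their spread. The means were 28.9 ± 2.76 and 13 ± 0.673 CPM (SD, n = 3 each), with a log2 fold change of -1.15 (SE 0.0922, 95% interval -1.35 to -0.95, adjusted p = 2.13e-07). An antisense gene, Gm36328, lies within the Dusp16 locus (chr6:134715468-134792625, minus strand, GRCm38). Genes on the other strand also overlap Dusp1 (Ergic1 and Gm8225), Dusp3 (Gm20659 and Cfap97d1) and Dusp10 (1700056E22Rik). On its own strand Dusp1 is overlapped by AC122252.4 and AC122252.1. The genes named here for Dusp1 and Dusp10 all lie outside the transcripts of these members that had counts. Dusp10 was the member with the lowest level, at 3.98, 3.27 and 2.75 CPM in shNC and 3.76, 2.77 and 2.32 CPM in shTrem2. The groups overlapped, and the log2 fold change of -0.17 had a 95% interval of -0.69 to 0.34 (adjusted p = 0.557), so a change of that size was not detectable at this depth.

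The small phosphatases that lack the kinase-binding domain also moved in opposite directions. Dusp3, which acts on ERK and JNK, had the highest mean CPM of the members in both groups, at 152, 150 and 155 in shNC and 98.9, 101 and 111 in shTrem2. The groups were far apart relative to their spread, with means of 152 ± 2.66 and 104 ± 6.64 CPM (SD, n = 3 each), and Dusp3 fell by 0.55 on the log2 scale (SE 0.0527, adjusted p = 1.04e-06). Dusp22, a regulator of JNK signaling that also acts in T-cell receptor signaling, stood at 14.4, 17.2 and 16.2 CPM in shNC and at 20.3, 20.6 and 22.5 CPM in shTrem2. The groups did not overlap, and Dusp22 rose by 0.41 on the log2 scale (SE 0.0935, adjusted p = 0.00209). With the effective length of its transcripts as an offset the log2 fold change of Dusp22 was 0.70, which passed the 1.5-fold threshold.

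The count table has 1 row per annotated transcript, and for 9 members the rows could be matched to named GENCODE transcripts, those of Dusp3 remaining unresolved. The row values are the authors' estimates of how shared reads divide among overlapping transcripts and carry no test here. Most Dusp1 counts fell on 3 transcripts of the same locus. Dusp1-202, the spliced coding transcript, had 5.18, 8.15 and 6.40 CPM in shNC and 12.7, 21 and 12.9 CPM in shTrem2. Dusp1-203, annotated as retaining an intron, had 0.847, 0.764 and 0.786 CPM in shNC and 17.3, 13.3 and 18.2 CPM in shTrem2. Dusp1-204, annotated as retaining another intron, had 0.373, 0.793 and 1.00 CPM in shNC and 4.73, 5.99 and 7.05 CPM in shTrem2. All 3 rows were separated between the groups, and the ratio of means was 2.36-fold for Dusp1-202 and 20.3-fold for Dusp1-203. Transcripts without a coding sequence held 18.0, 16 and 21.8% of the Dusp1 counts in shNC and 59.5, 47.9 and 66.2% in shTrem2.

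The introns in question lie in the coding part of Dusp1 on the minus strand (GRCm38), as the middle intron of Dusp1-202 for the one kept in Dusp1-203 (chr17:26507205-26507573, 369 bases) and as its last intron for the one kept in Dusp1-204 (chr17:26506651-26506984, 334 bases). Their junctions are shown because they mark the sequence by which a spliced read and an unspliced read of Dusp1 differ, with exon bases in lower case and intron bases in capitals.
Dusp1-203, start of the intron: cctctctacgatcagGTTAGTAGGAGTCCG
Dusp1-203, end of the intron: TTTTTTTGACTTCAGgggggcccagtggag
Dusp1-204, start of the intron: ctattgacttcatagGTAAATGGAATAACT
Dusp1-204, end of the intron: AACTTTATTTTCCAGactccatcaaggatg

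For Dusp1 as a whole the coding rows summed to 6.70 ± 1.32 and 16.3 ± 4.21 CPM in the control and knockdown libraries (SD, n = 3 each), a log2 ratio of 1.28. Its intron-retaining rows summed to 1.52 ± 0.287 and 22.2 ± 2.96 CPM, a log2 ratio of 3.87. Computed on library totals without TMM factors, and with a small floor added to each mean, the intron-retaining rows moved by 2.56 more than the coding rows on the log2 scale. In 2901 other genes with rows of both kinds this difference had a median of -0.08 (5th percentile -1.16, 95th percentile 0.99), and 5 of them had a difference at least as large as that of Dusp1. These genes passed minimum levels, and their rows, named in order, rebuilt the gene's FPKM within 1%. Whether another order of their rows fitted as well was not checked, so some rows may be misnamed. Dusp2 also has an intron-retaining row, Dusp2-202, whose level was 2.16 CPM in shNC and 2.41 CPM in shTrem2 with overlapping groups.

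For Dusp16 the main coding row, Dusp16-201, went from 25.8, 26.2 and 21.3 CPM to 10.6, 10.5 and 9.98 CPM, a log2 ratio of -1.24. The Dusp22 counts fell on a pair of coding transcripts of different length. Dusp22-201, the shorter at 1161 bases, had 4.33, 5.06 and 5.97 CPM in shNC and 10.5, 9.42 and 11.3 CPM in shTrem2. Dusp22-202, at 3015 bases, had 9.70, 11.6 and 9.82 CPM in shNC and 9.24, 10.7 and 10.2 CPM in shTrem2. The shorter transcript was separated between the groups (log2 ratio 1.03) and the longer one overlapped (-0.05).

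**Figure D3:**
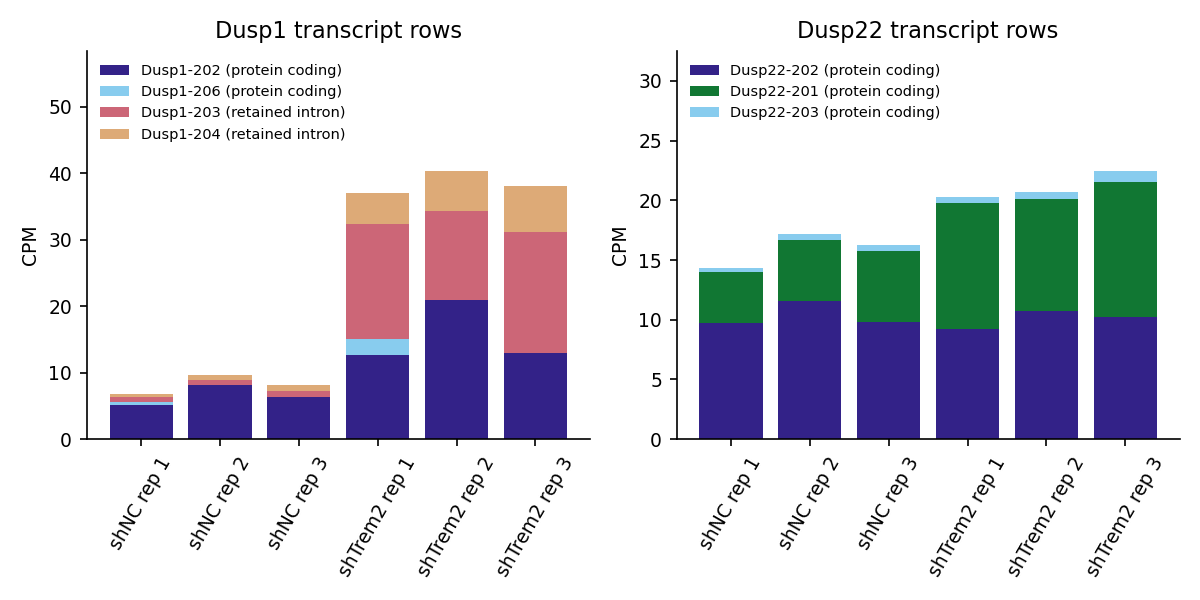
Level of the transcript rows of Dusp1 (left) and Dusp22 (right) in CPM, stacked from 0 in 1 bar per library. The intron-retaining row Dusp1-203 is at most 0.847 CPM in shNC and 13.3 to 18.2 CPM in shTrem2, and the bar of Dusp22-202 is of like height in both groups while that of Dusp22-201 is taller in shTrem2.

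Compared per length in FPKM, the order of the members differed between the groups. In shNC the mean levels were led by Dusp3 (54.6 FPKM) and Dusp4 (46.4), followed by Dusp2 (19.0). Dusp7 (10.7), Dusp6 (10.7) and Dusp22 (10.2) came next with overlapping ranges, then Dusp16 (6.39) and Dusp1 (5.86), which overlapped, and last Dusp5 (2.32) and Dusp10 (1.35). In shTrem2 Dusp4 (39.3 FPKM) and Dusp3 (35.8) overlapped at the top, and Dusp1 (29.0) was 3rd where it had been 8th in shNC. These FPKM values include every transcript of a gene. For Dusp1 in shTrem2, transcripts without a coding sequence held 59.5, 47.9 and 66.2% of the counts. This share is of counts and does not weigh the transcripts by length, as FPKM does. An order from coding transcripts alone was not made, so the 3rd place of Dusp1 holds only for all its transcripts together. Dusp22 (16.2), Dusp2 (15.4) and Dusp6 (14.3) overlapped in the middle, and Dusp7 (7.06), Dusp16 (3.08), Dusp5 (1.92) and Dusp10 (1.17) closed the order without overlap.

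The summed level of the 10 members was 168 ± 7.5 FPKM in shNC and 163 ± 9.37 FPKM in shTrem2 (SD, n = 3 each), with overlapping libraries, while its division among the members shifted. Dusp1 held 2.75, 3.90 and 3.84% of the sum in shNC and 17.5, 17.9 and 18.0% in shTrem2. The sum, these shares and the subgroup shares below include the transcripts of Dusp1 without a coding sequence. Sums and shares from coding transcripts alone were not made. The overlap of the sums is therefore shown only for all transcripts together. Dusp3 held 32.6 ± 2.25% and 21.9 ± 1.39%, and Dusp22 held 6.10 ± 0.719% and 9.94 ± 0.849% (SD, n = 3 each). By subgroup, the nuclear inducible members held 43.9 ± 2.95% in shNC and 52.5 ± 1.1% in shTrem2. Within them Dusp1 had the larger mean share in shTrem2, while the mean shares of Dusp2 (11.3 and 9.45%), Dusp4 (27.7 and 24.1%) and Dusp5 (1.38 and 1.17%) were smaller there. The small members held 38.7 ± 2.96% and 31.8 ± 1.64%. The members directed at JNK and p38 held 4.63 ± 0.569% and 2.62 ± 0.516%, and the cytoplasmic members directed at ERK held 12.8 ± 0.575% and 13 ± 0.824%. With all transcripts of each gene included, only the share of the cytoplasmic members overlapped between the groups among these 4 subgroups. Whether this holds for coding transcripts alone was not tested.

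**Figure D4:**
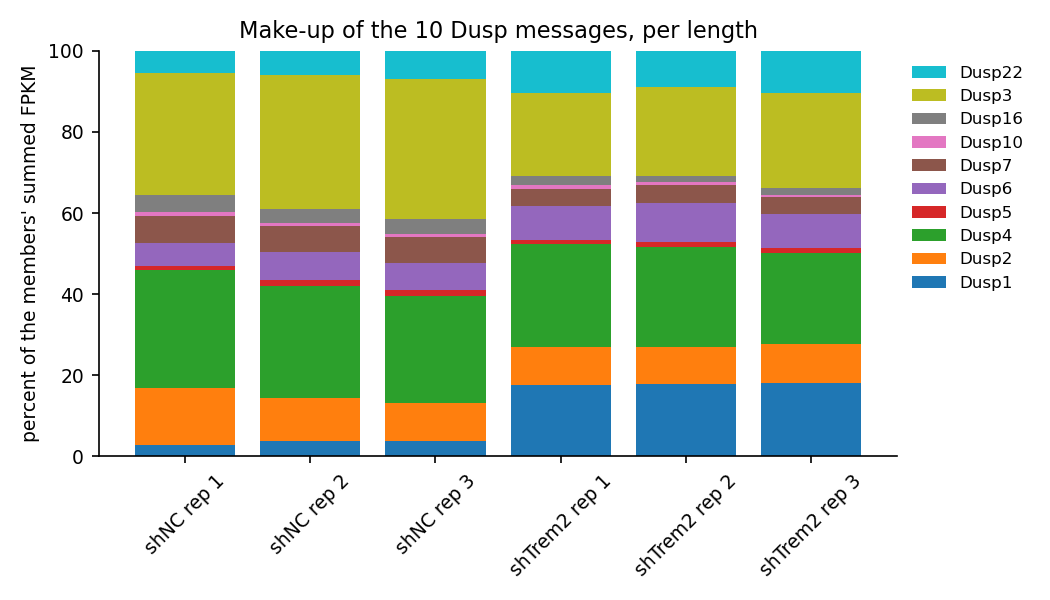
Share of the summed FPKM of the 10 Dusp genes held by each gene (percent, stacked bars from 0 to 100), with 1 bar per library. Dusp1 takes 2.75 to 3.90% of the sum in shNC and 17.5 to 18.0% in shTrem2, and Dusp3 takes the largest share in every shNC library. The FPKM of Dusp1 includes its transcripts without a coding sequence.

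The rest of the phosphatase family and the pathway around it were read from lists of genes by role, each beside the 57.4% of all genes that passed FDR under 0.05 and the 21.8% that were DEGs. Of 19 other dual-specificity phosphatases 10 were tested, of which 2 rose, 5 fell and 3 did not pass, with a median log2 fold change of -0.21. Dusp14, a small phosphatase, stood at 4.91, 4.05 and 3.79 CPM in shNC and at 1.10, 1.31 and 1.70 CPM in shTrem2 (log2 fold change -1.63, adjusted p = 6e-05), and Dusp12 rose by 0.61 (adjusted p = 0.000557). Of 8 tested phosphatases of other families that act on MAP kinases 5 rose, 2 fell and 1 did not pass. Ptpn5, a tyrosine phosphatase of ERK and p38, fell from 5.82 ± 0.318 to 1.21 ± 0.174 CPM (log2 fold change -2.26, adjusted p = 8.23e-07; SD, n = 3 each) and was the 1 DEG among them.

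Among the substrates of the phosphatases, 9 MAP kinases were tested, of which 2 rose, 4 fell and 3 did not pass. The p38 isoform genes Mapk12 and Mapk11 fell by 1.11 and 0.71 on the log2 scale (adjusted p = 0.000292 and 0.000192), and Mapk7, which encodes ERK5, fell by 0.62 (adjusted p = 4.89e-06). Mapk3, which encodes ERK1, rose by 0.32 (adjusted p = 0.000144) and Mapk14, which encodes p38 alpha, by 0.29 (0.000432). Of 21 upstream kinases tested 6 rose, 6 fell and 9 did not pass. Map3k20 fell by 1.08, Map3k8, the kinase that links Toll-like receptors to ERK, by 0.87, and Braf by 0.80 (adjusted p = 2.52e-08, 1.5e-06 and 4.97e-07). Map3k6 rose by 0.71 (adjusted p = 0.0083), a call that was lost in 3 alternative settings.

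Of 15 tested targets and feedback inhibitors of ERK 11 fell, 2 rose and 2 did not pass, and the 7 DEGs among them were all lower. Of all tested genes 28.6% fell at this FDR, and 12.4% were DEGs that were lower. The median log2 fold change of the 15 was -0.76. The 2 that rose were Spred2, by 0.46 (adjusted p = 8.76e-06), and Egr1, by 0.23 (0.0199). Epha2 went from 46.5, 43.3 and 32.8 CPM in shNC to 2.97, 2.25 and 1.91 CPM in shTrem2, a log2 fold change of -4.10 (adjusted p = 5.13e-10). Fosl1, an AP-1 subunit, fell by 2.20 (adjusted p = 2.42e-07), Phlda1 fell by 2.04 (1.62e-08) and Etv4, an ETS factor, fell by 1.60 (2.77e-05). Dusp4, Dusp5 and Dusp6, which are ERK targets too, were kept out of this list as members. Of these Dusp6 rose, Dusp4 fell and Dusp5 did not pass. Dusp1, which rose by 2.22, is not in this list either. The AP-1 subunit Fosl1 is counted here, while Fos and Fosb, which rose by 2.93 and 6.24, are counted with the AP-1 subunits below. In that list 4 rose and 4 fell. The counts therefore depend on how genes were divided among the lists.

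JNK targets and AP-1 subunits split evenly, with 4 of 10 higher, 4 lower and 2 not passing. Fosb stood at 0.932, 1.39 and 0.715 CPM in shNC and at 73.2, 86.9 and 71.0 CPM in shTrem2 (log2 fold change 6.24, adjusted p = 6.13e-12), and Fos at 23.9, 24.3 and 23.2 CPM in shNC and at 187, 192 and 166 CPM in shTrem2 (2.93, adjusted p = 5.03e-12). Both were separated between the groups. Maff fell by 1.66 and Jund by 0.64 (adjusted p = 1.84e-06 and 9.12e-07). Among p38 targets and factors of mRNA decay, 2 of 9 rose, 5 fell and 2 did not pass. Ptgs2, the inducible cyclooxygenase gene, went from 298, 279 and 178 CPM to 23.1, 22.1 and 21.4 CPM (log2 fold change -3.50, adjusted p = 1.12e-09). Tnf fell by 1.07 and Zfp36l1 by 0.60 (adjusted p = 2.88e-08 and 2.78e-06), and Zfp36l2 rose by 0.73 (7.39e-08).

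Glucocorticoid targets were listed because Dusp1 is one in macrophages. Of 8 tested 2 rose, 5 fell and 1 did not pass. Per1, Sgk1 and Klf9 fell by 1.32, 1.22 and 1.07 (adjusted p = 3.82e-08, 8.19e-05 and 9.82e-09), and Tsc22d3, which encodes the glucocorticoid-induced leucine zipper, rose by 0.75 (3.93e-06). Of 16 tested genes between the TREM2 receptor and the MAP kinases 6 rose, 7 fell and 3 did not pass, and Trem2 itself was the 1 DEG. Tyrobp, the signaling adaptor of TREM2, rose by 0.57 (adjusted p = 4.2e-07), and Syk, the kinase that it recruits, rose by 0.38 (0.000671). Among the 7 that fell, Rasgrp3 fell by 0.518, Sos1 by 0.445 and Ptpn6 by 0.441 (adjusted p = 4.1e-07, 4.79e-05 and 1.1e-06). Tyrobp, Syk, Rasgrp3, Sos1 and Ptpn6 are named in addition to the rule, after their values were seen.

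**Figure D5:**
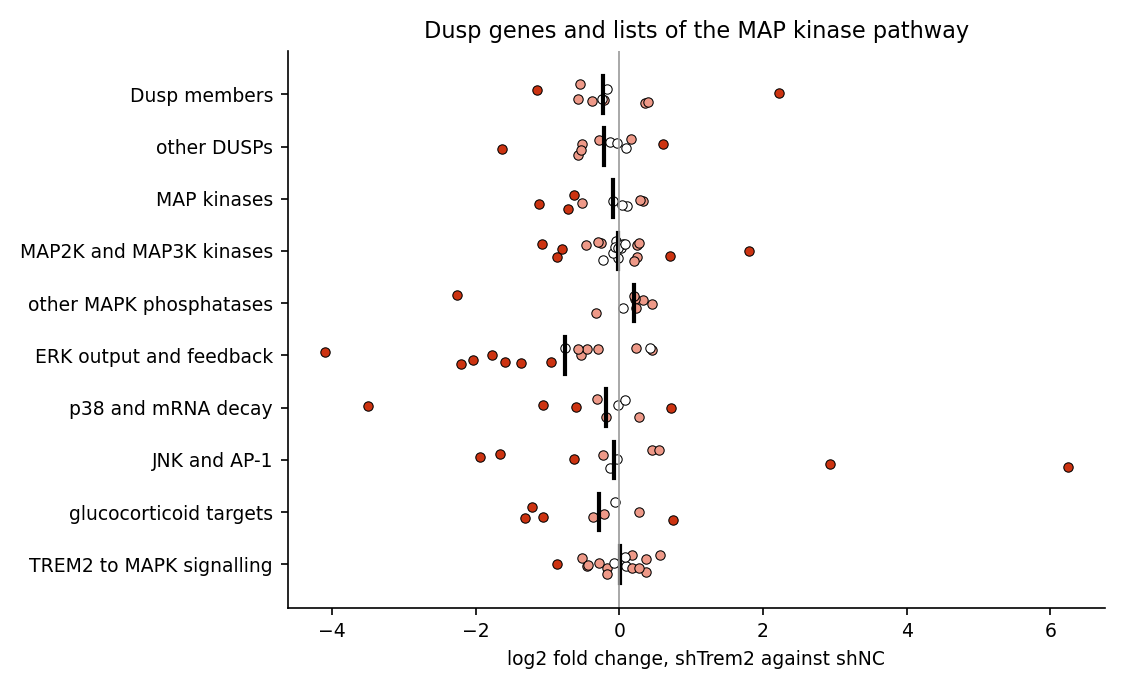
Log2 fold change (shTrem2 over shNC) of every tested gene in the Dusp group and 9 pathway lists, 1 point per gene, with a bar at each list's median; dark points are DEGs, pale points pass FDR under 0.05 only and white points do not pass. The list of ERK output and feedback has its median at -0.76 and that of all tested genes is 0.0.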

How the data were processed

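Poly(A) RNA of 6 libraries was sequenced as stranded paired reads. Reads were trimmed (fastp), aligned to the mouse genome with HISAT2 (GRCm39 per the labels' processing notes) and assembled with StringTie, as the study's methods state; the tool that counted is not given in the sources used here. The authors deposited estimated counts per transcript (278369 rows, 79.3% of nonzero values not whole) and FPKM per gene; 2 columns of group means were not used. Rows without a gene symbol (59568 rows, 0.908 to 1.12% of counts) were left out.

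Counts were summed per symbol, rounded and tested with edgeR 4.0.16 (R 4.3.3; filterByExpr, TMM, quasi-likelihood test, Benjamini-Hochberg adjustment) across 13528 genes. CPM values are TMM-scaled, the SE is the log2 fold change divided by the square root of F, and intervals cover the spread between libraries. The floor of 3 counts is 0.153 to 0.189 CPM and covers counting error only. Count rows of the members carry no transcript name: they were matched to GENCODE M21 (GRCm38) transcripts in order, checked by rebuilding each gene's FPKM within 1% (for Dusp16 and Dusp22 the next order was within 0.552% and 0.354%). Promoters are from RefSeq, GRCm38.p6. Replicates of a group differed beyond sampling noise (chi-square per degree of freedom 2.52 to 9.77). The members and lists were chosen with earlier results of these data known. Named genes were the members, Trem2 and, of each list, up to 4 DEGs with the largest absolute log2 fold change whose groups did not overlap and whose log2 CPM averaged 1 or more; genes named beyond this were picked after their values were seen. Alternatives were DESeq2 1.42.0, limma 3.58.1 (voom, and trend on log2 of FPKM plus 1 or 0.1), other scalings, filters and thresholds, a replicate block, an effective-length offset, leaving out each library and, added after seeing the data, counting coding rows of the members only.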

Additional observations from a re-analysis of the deposited data

How the results depend on the processing

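No log2 fold change of a gene chosen by the naming rule changed sign under any alternative, and 7 calls at FDR under 0.05 were lost, 4 of Dusp2 and 3 of Map3k6 (adjusted p = 0.126, 0.128 and 0.0706). Over 18 alternatives the log2 fold change ranged from 1.28 to 2.35 for Dusp1 and from -1.20 to -0.86 for Dusp16. DEGs among the members, 2 as reported, numbered 4 with library size only, 4 with limma-trend on log2(FPKM + 1), 5 on log2(FPKM + 0.1), 8 without a fold threshold, 3 with upper quartile scaling (adding Dusp7) or the effective length offset (adding Dusp22), and 2 to 3 when a library was left out. Over all genes the 2951 DEGs became 1339 at a fold change over 2, 7763 without a fold threshold, and 2789 to 3105 when a library was left out. Under every scaling tried, the median over all genes shifted by less than 0.1 (log2). In CPM in place of FPKM, the shares in shNC and shTrem2 were 36.3 and 44.7% for the nuclear inducible members, 13.6 and 14.7% for the cytoplasmic ones, 8.04 and 4.61% for those directed at JNK and p38, and 42.1 and 36.0% for the small ones, since CPM does not divide by length.

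When a library was left out, the FPKM shares ranged from 42.3 to 45.3% and 52.1 to 53.1% (nuclear, shNC and shTrem2), 12.5 to 13.1% and 12.6 to 13.3% (cytoplasmic), 4.31 to 4.85% and 2.33 to 2.83% (JNK and p38), and 37.3 to 40.3% and 30.9 to 32.3% (small). The replicate numbers of the 2 groups are only shared numbers: deviations of same-numbered samples correlated at -0.025, 0.0022 and -0.027 over 11438 genes. With the replicate block the members had 2 DEGs and all genes 2911. At this depth the intervals of Dusp5 and Dusp10, the members with the fewest counts, include changes of up to 0.66 and 0.69 in the lower direction on the log2 scale.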
